A study of Mus musculus with 4 samples.

Results

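The genes described here build and anchor the actin cytoskeleton of the keratinocyte. The list named 52 genes of the actin filament and the focal adhesion, and the members used were those whose mean expression over the 4 libraries was at least 1 FPKM, the unit of fragments scaled by transcript length and library size. All 52 were found in the expression table, and 50 passed this level, out of 11350 genes that passed among 23970 gene symbols. The cells were primary keratinocytes of newborn mice, grown at passage 0 in low-calcium medium on growth-arrested J2-3T3 cells, a fibroblast line that feeds the culture and was taken away before RNA extraction. RNA was sequenced from 2 control and 2 Ovol2-deficient libraries, and the comparison asks how expression differs when Ovol2 is deficient. Ovol2 encodes a zinc-finger repressor that keeps cells epithelial. Apart from the genotype, the labels describe both groups in the same way, with no added treatment. The sources used here do not give the allele, the promoter of any Cre, the strain or the controls' own alleles. The labels do not say whether the libraries of a group came from separate animals or cultures, so p-values measure the spread between these libraries, which may be technical.

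Actin monomers polymerise into filaments that push the cell edge forward or, with myosin, pull on it. The Arp2/3 complex grows branches from existing filaments, formins and Ena/VASP proteins lengthen them, and cofilin takes them apart. Crosslinkers bundle the filaments, nonmuscle myosin II contracts them, and the focal adhesion plaque couples them to integrins at the matrix. In the epidermis this machinery holds cells to each other and to the basement membrane and drives their migration when a wound closes. Many of its genes are targets of the serum response factor SRF, whose MRTF cofactors sense free actin monomers and which binds the CArG box, and some are targets of the TEAD factors, which bind GGAATG.

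The start regions of 5 members are printed as examples. Each of these genes is described below, holds a CArG box or GGAATG, and was lower in both deficient libraries. They are the 250 bases before the RefSeq start of each gene on the mouse build mm10 (GRCm38.p6), read 5′ to 3′ on the strand of the gene. Capitals mark a CArG box or GGAATG, the latter also as its reverse complement CATTCC. The window of Actg1, one of the 2 cytoplasmic actins, is chr11:120348496-120348745 on the minus strand, that of the calponin Cnn2 is chr10:79988350-79988599 on the plus strand, and that of the adhesion plaque gene Vcl is chr14:20929148-20929397 on the plus strand. Those of the crosslinker genes Actn4 and Flna are chr7:28962333-28962582 and chrX:74246535-74246784, both on the minus strand.
Actg1: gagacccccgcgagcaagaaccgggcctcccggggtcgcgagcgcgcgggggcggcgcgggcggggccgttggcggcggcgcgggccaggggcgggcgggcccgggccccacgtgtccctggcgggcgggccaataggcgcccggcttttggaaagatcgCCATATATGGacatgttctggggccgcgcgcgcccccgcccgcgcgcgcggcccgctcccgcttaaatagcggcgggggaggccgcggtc
Cnn2: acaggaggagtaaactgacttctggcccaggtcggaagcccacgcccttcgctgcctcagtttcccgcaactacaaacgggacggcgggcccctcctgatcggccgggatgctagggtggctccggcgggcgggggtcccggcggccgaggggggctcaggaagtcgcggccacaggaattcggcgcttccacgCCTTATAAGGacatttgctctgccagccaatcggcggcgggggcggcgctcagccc
Vcl: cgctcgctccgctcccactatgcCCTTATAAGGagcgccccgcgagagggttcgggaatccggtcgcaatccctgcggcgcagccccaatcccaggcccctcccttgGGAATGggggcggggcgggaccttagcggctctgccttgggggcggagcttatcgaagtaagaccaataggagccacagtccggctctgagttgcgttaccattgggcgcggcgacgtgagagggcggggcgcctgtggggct
Actn4: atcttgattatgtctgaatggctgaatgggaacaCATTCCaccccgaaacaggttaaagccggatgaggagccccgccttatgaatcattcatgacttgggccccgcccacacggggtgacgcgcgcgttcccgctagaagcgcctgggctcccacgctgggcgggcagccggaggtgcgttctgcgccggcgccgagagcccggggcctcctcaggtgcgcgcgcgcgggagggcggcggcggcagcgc
Flna: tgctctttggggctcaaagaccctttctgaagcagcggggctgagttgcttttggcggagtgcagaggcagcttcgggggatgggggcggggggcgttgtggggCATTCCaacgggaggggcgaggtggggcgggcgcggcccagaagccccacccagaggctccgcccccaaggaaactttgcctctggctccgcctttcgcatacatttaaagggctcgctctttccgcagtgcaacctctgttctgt
Actg1 and Cnn2 held a CArG box, Actn4 and Flna held GGAATG, and Vcl held both without overlap. Start windows were found for 44 members, 50 windows in all. A CArG box was in 6 of these windows, of Actg1, Arpc4, Cnn2, Myl6, Myl9 and Vcl, against 1.47% of 32851 windows of all genes. GGAATG was in 11 windows of 10 members, against 12.6% of all windows. The 10 were Acta2, Actn4, Arpc2, Evl, Flna, Myh10, Pfn1, Tagln2, Tpm1 and Vcl. Of these, Acta2 and Myh10 were higher in both deficient libraries than in either control, and the others were lower in both. Among all 50 tested members 28 were lower in both and 6 higher in both, and among all tested genes 24% and 24.1%. CCGTTA, the core bound by OVO family proteins, was searched on both strands too and was in 0 of the 50 windows, against 2.18% of all windows. A match is a sequence description, and windows without one say nothing of a factor.

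The target of the deficiency was low in every library. Ovol2 stood at 2.68 and 2.14 FPKM in controls 1 and 2 and at 1.45 and 0.941 in Ovol2-deficient libraries 1 and 2. The groups did not overlap, but the difference did not pass in limma (log2 fold change -0.64, adjusted p = 0.129). It did not pass in the authors' deposited table either (-0.36, adjusted p = 0.441). Since the altered stretch of Ovol2 is unknown here, its level checks the labels only in part. The keratinocyte markers were abundant, with Krt5 at 2960.3 and 2762 FPKM in controls and 2484 and 2269 in deficient libraries. Of the 9, all tested, 8 had a log2 fold change below 0, with a median of -0.27, and 6 were lower in both deficient libraries than in either control. Limma called none of them, and the authors' deposited table called Itga6 and Cdh1 lower. Their summed level was 6271 and 6099 FPKM in controls against 5734 and 4950.4 in deficient libraries, and the part of this in the members' lower values was not tested. Depth is known only by estimate: steps in the authors' deposited table correspond to 12400000 to 14800000 counted reads per library. Of 22 fibroblast or feeder markers 17 were tested, and all 17 stood higher in both deficient libraries than in both controls. Their median log2 fold change was 0.54. Limma called 3 of them higher and the authors' deposited table called 11 higher. The fibroblast or feeder sum was 542 and 524 FPKM in controls against 737 and 764 in deficient libraries. The other 5 markers had a mean under 1 FPKM. Of these, Dcn overlapped between the groups, and Lum, Postn, Mfap5 and Fap were higher in both deficient libraries. The 6 tested melanocyte markers of 8 were higher in both deficient libraries as well, with a median of 0.37. Of all tested genes, 50.4% were below 0, 24% were lower in both deficient libraries and 24.1% were higher in both. Of genes with a mean of at least 100 FPKM, 65.3% were below 0 and 30.2% were lower in both. Limma called 1.35% of all tested genes, and the authors' deposited table called 4.43% of its genes used here.

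Across the actin and adhesion genes most values were slightly lower in the Ovol2-deficient libraries, most often so among the abundant ones. None of the 50 tested members passed an adjusted p of 0.05 in limma, where 1.35% of all tested genes did (0.511% lower and 0.837% higher in the deficient libraries). At an unadjusted p under 0.05, 12 were lower and 3 higher, against 7.94% and 9.49% of all tested genes (17.4% together). The authors' deposited table, with an adjusted p for all 50, called 5 members lower (Actb, Actg1, Actn4, Flna and Cnn2) and 1 higher (Myh10). It called 4.43% of its genes used here, 2.1% lower and 2.33% higher. For 28 members both deficient libraries were lower than either control, for 6 both were higher, and for 16 the groups overlapped, where 24% and 24.1% of all tested genes lay below and above. The log2 fold change was below 0 for 40 of 50 members, with a median of -0.12, against 50.4% of all tested genes and a median of -0.0014. Under quantile normalization it was below 0 for 40 and under median centring for 41. These are bulk RNA levels, so fewer cells of a type and less RNA per cell cannot be told apart.

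**Figure D1:**
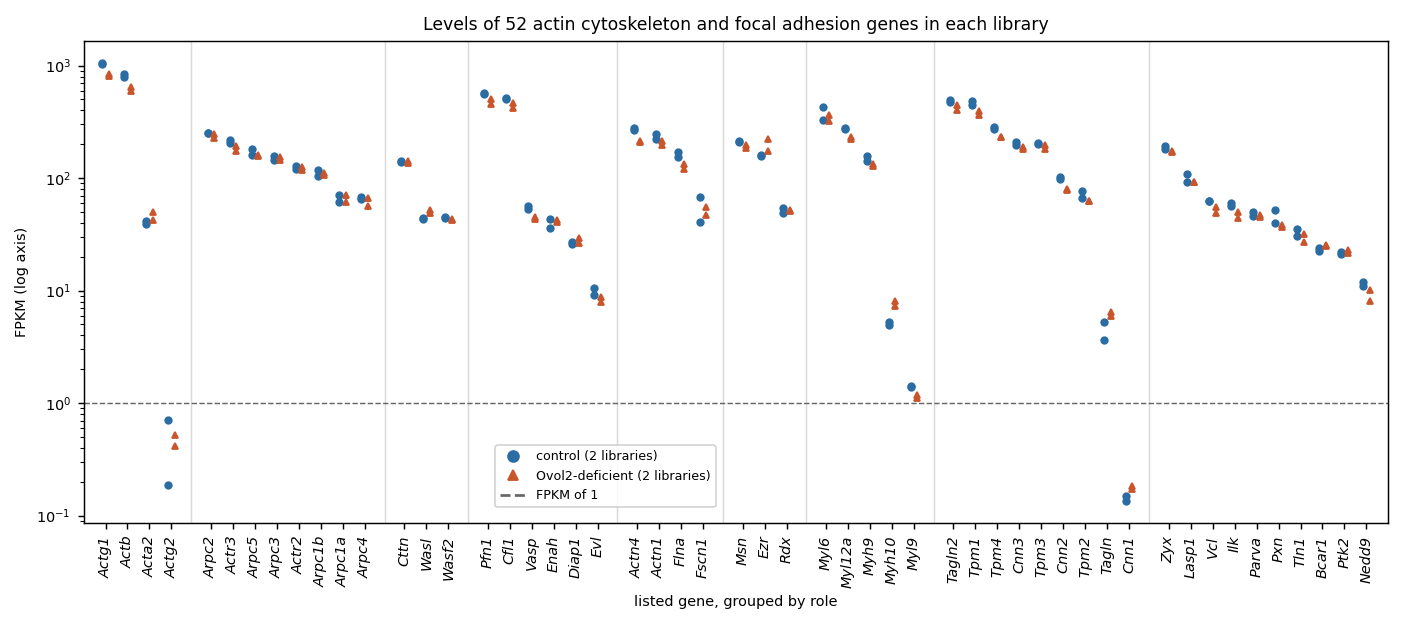
Expression of the 52 listed genes (FPKM, log axis) in each of the 2 control (circles) and 2 Ovol2-deficient (triangles) libraries, grouped by role; the dashed line is the level of 1 FPKM that members had to reach as a mean. Actg1 and Actb stand highest with both triangles below both circles, and Actg2 and Cnn1 lie below the line.

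Among the actins, both cytoplasmic forms were lower in the deficient libraries and the smooth muscle form was not. Actb, the beta-actin gene (ENSMUSG00000029580.14, chromosome 5, 142903115 to 142906754, minus strand), stood at 835 and 791 FPKM in controls and at 652 and 597 in deficient libraries. The means were 813 ± 31.2 and 624 ± 39.1 (SD over 2 libraries each), with a log2 fold change on the FPKM + 1 scale of -0.38 (SE 0.11, limma adjusted p = 0.131). The authors' deposited table gave -0.39 with an adjusted p of 0.00193. Actg1, the gamma-actin gene (chromosome 11, 120345690 to 120348542, minus strand), stood at 1063 and 1026 against 843 and 815 FPKM, and the groups again did not overlap. Its log2 fold change was -0.33 (SE 0.10, limma adjusted p = 0.164), and the authors' deposited table gave -0.35 with an adjusted p of 0.00447. Together both genes made up 0.449% and 0.446% of the summed FPKM of the control libraries and 0.354% and 0.358% of the deficient ones. The balance between them barely differed, with Actb at 78.6% and 77.1% of Actg1 in controls and 77.3% and 73.3% in deficient libraries. Acta2, the actin of smooth muscle and contractile fibroblasts, stood at 41.7 and 39.1 against 42.7 and 50.3 FPKM, higher in both deficient libraries but by little in the first of them (log2 fold change 0.19, limma adjusted p = 0.420; 0.08 without deficient library 2). Actg2, the enteric smooth muscle actin, lay outside the level required at 0.712 and 0.187 against 0.517 and 0.415 FPKM. Actin genes are near-identical in their coding parts, so the share of reads given to each is uncertain.

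Genes of the Arp2/3 complex, which nucleates branches, stayed close to their control levels. All 8 subunit genes were tested and none was called by limma or by the authors' deposited table, with log2 fold changes from -0.21 to -0.0051 and a median of -0.06. Levels ran from Arpc4 at 67.6 and 65.3 against 66.9 and 56.8 FPKM up to Arpc2 at 254 and 252 against 245 and 227. Only Arpc2 and Actr3 had both deficient values below both controls, as 24% of all tested genes did. Actr3, which with Actr2 forms the seed of the new branch, stood at 219 and 207 against 192 and 176 FPKM, a log2 fold change of -0.21 with a 95% interval of -0.44 to 0.02 (limma adjusted p = 0.325). For Actr2 the values were 129 and 119.6 against 126 and 118, within the spread of the libraries, and the interval of its log2 fold change ran from -0.25 to 0.19. The exchangeable subunits Arpc1a and Arpc1b overlapped between the groups, at 70.7 and 62.0 against 70.8 and 61.5 FPKM for the first and 105 and 117 against 111 and 107 for the second. 

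The activators of the complex split. Wasl, the N-WASP gene, stood at 44.0 and 43.0 FPKM in controls and 52.1 and 49.5 in deficient libraries, both above both controls (log2 fold change 0.22, SE 0.09, limma adjusted p = 0.266). Wasf2, a WAVE gene that answers to Rac, was slightly lower in both, at 44.0 and 45.1 against 43.3 and 42.3. Cttn, cortactin, which stabilises branches, overlapped at 141 and 138 against 136 and 142, and its log2 fold change of -0.0017 changed sign under quantile normalization (0.0020).

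Of the 6 genes of filament lengthening and turnover, 4 were lower in both deficient libraries than in either control and 2 overlapped. Among all tested genes 24% were lower in both. Pfn1, profilin, which loads actin monomers, stood at 562 and 571 against 509 and 454 FPKM, with both deficient libraries below both controls (log2 fold change -0.24, limma adjusted p = 0.315). Cfl1, cofilin, stood at 516 and 504 against 469 and 419 (-0.20, limma adjusted p = 0.385). The largest difference of this role was that of Vasp, which lengthens filaments at the cell edge, at 56.2 and 53.3 against 45.1 and 43.6 FPKM (54.8 ± 2.03 against 44.4 ± 1.02, log2 fold change -0.30, SE 0.09, limma adjusted p = 0.146; -0.27 with an adjusted p of 0.163 in the authors' deposited table). Its relatives behaved differently from each other: Evl was lower in both deficient libraries (10.6 and 9.17 against 8.78 and 7.89), while Enah overlapped (43.5 and 35.9 against 42.6 and 40.4). The formin gene Diap1, now named Diaph1, overlapped too, at 26.2 and 26.9 against 29.6 and 26.3 FPKM, and its log2 fold change of 0.07 turned to -0.013 without Ovol2-deficient library 1.

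**Figure D2:**
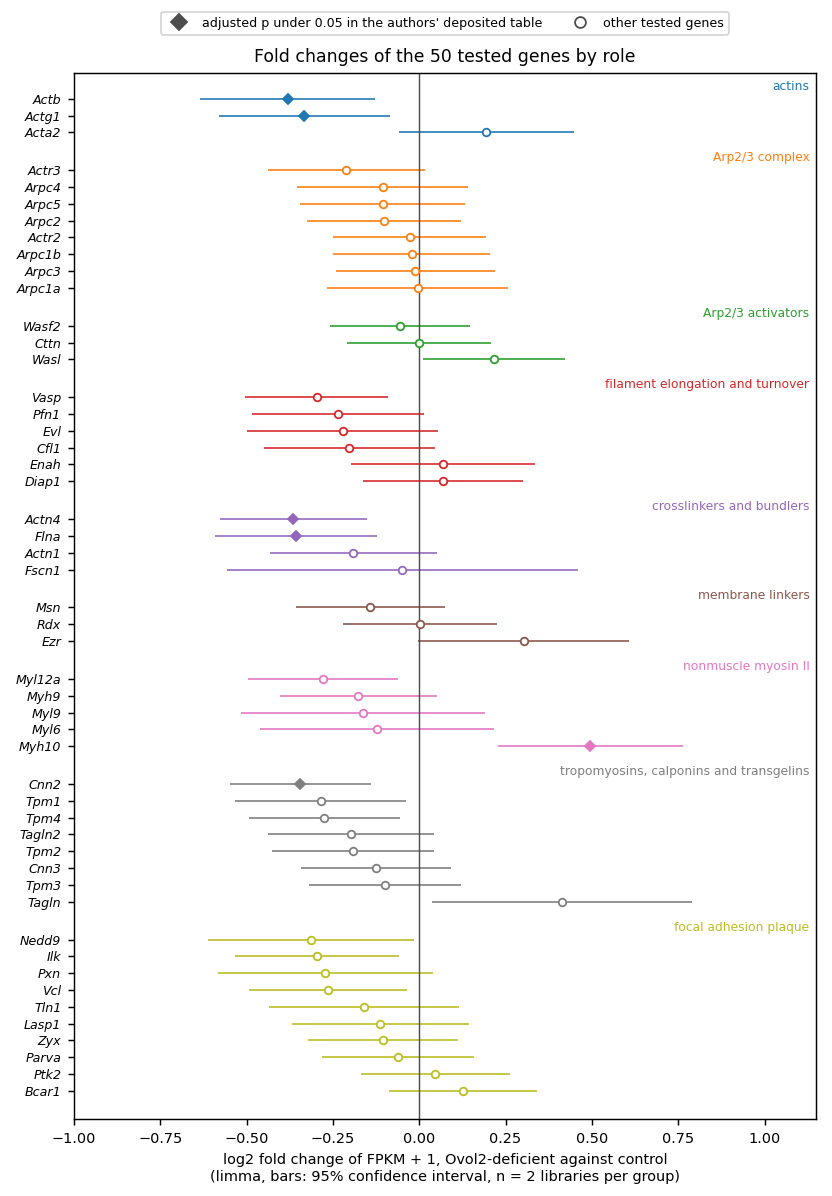
Log2 fold change (FPKM + 1 scale, Ovol2-deficient against control, limma) of the 50 tested genes by role, with 95% confidence intervals and n = 2 libraries per group; filled diamonds mark an adjusted p under 0.05 in the authors' deposited table. Of 50 points 40 lie below 0, down to -0.38, and Myh10 stands highest at 0.50.

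Of the 4 crosslinker genes, 2 were called lower in the authors' deposited table and none in limma. That table called 2.1% of its genes used here lower, and limma called 0.511% of all tested genes lower. Actn4, an alpha-actinin (ENSMUSG00000054808.15, chromosome 7, 28893248 to 28962340, minus strand), stood at 277 and 268 FPKM in controls and 213 and 209 in deficient libraries. The groups lay far apart relative to their spread (272 ± 6.17 against 211 ± 3.14), with a log2 fold change of -0.36 (SE 0.09, limma adjusted p = 0.101; the authors' deposited table gave -0.37 with an adjusted p of 0.00301). An exon of Actn4 overlaps one of Capn12 on the opposite strand, and without stranded counting their reads cannot be told apart. Flna, filamin A, which joins filaments into a network and links them to integrins (chromosome X, 74223461 to 74249820, minus strand), stood at 155 and 169.9 against 121 and 133 FPKM. Both deficient values were lower, with a log2 fold change of -0.36 (SE 0.10, limma adjusted p = 0.130; the authors' deposited table gave -0.36 with an adjusted p of 0.0165). Actn1, the other alpha-actinin, had a smaller difference, at 222 and 249 against 213 and 199 FPKM (-0.19, limma adjusted p = 0.404). Fscn1, fascin, the bundler of filopodia, varied more between the controls than between the groups, at 40.9 and 67.8 FPKM against 47.2 and 54.9.

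Of the ERM genes, which tie filaments to the membrane, ezrin was alone in being higher. Ezr stood at 158 and 161 FPKM in controls and 223 and 174 in deficient libraries, with no overlap but most of the difference in deficient library 1 (log2 fold change 0.30, SE 0.13, limma adjusted p = 0.290; 0.12 without that library). The authors' deposited table gave 0.29 with an adjusted p of 0.124. Msn, moesin, the most abundant of the 3, stood at 208 and 213 against 185 and 196, lower in both (-0.14, limma adjusted p = 0.490). Rdx, radixin, overlapped at 54.2 and 48.6 against 51.7 and 51.2. An exon of Ezr overlaps Sytl3 on the opposite strand.

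Nonmuscle myosin II held the member with the largest difference of all. Myh10, the heavy chain of myosin IIB (ENSMUSG00000020900.15, chromosome 11, 68691559 to 68816632, plus strand), stood at 5.27 and 4.95 FPKM in controls and 8.01 and 7.23 in deficient libraries. The mean was 5.11 ± 0.229 against 7.62 ± 0.547, a difference of 49.1%, with a log2 fold change of 0.50 (SE 0.11, limma adjusted p = 0.0836; the authors' deposited table gave 0.50 with an adjusted p of 0.00447). It ran from 0.43 to 0.56 when each library was left out in turn. Myh9, the heavy chain of myosin IIA, was far more abundant and lower, at 141 and 157 against 128 and 135 FPKM (-0.18, limma adjusted p = 0.413). Among the light chains, Myl12a stood at 271 and 281 against 232 and 223, lower in both (-0.28, SE 0.09, limma adjusted p = 0.184), though an exon of it overlaps Myl12b and the 2 are close copies. Myl6, the essential light chain, overlapped at 427 and 328 against 324 and 366, and its log2 fold change of -0.12 turned to 0.07 without control 1. Myl9, the smooth muscle light chain, was just inside the level required, at 1.40 and 1.41 against 1.10 and 1.19 FPKM.

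Tropomyosins, calponins and transgelins lie along the filament and steady it. Of the 8 tested, 7 were lower in both deficient libraries than in either control, and Tagln was higher in both. Among all tested genes 24% were lower in both, and among those of at least 100 FPKM 30.2%. Cnn2, a calponin of nonmuscle cells (chromosome 10, 79988584 to 79996062, plus strand), had the lowest log2 fold change of this role, at 98.6 and 102 FPKM in controls against 78.0 and 80.0. The means were 100.5 ± 2.71 and 79.0 ± 1.40, with a log2 fold change of -0.34 (SE 0.09, limma adjusted p = 0.104; the authors' deposited table gave -0.33 with an adjusted p of 0.0350). Tpm1 stood at 482 and 444 against 362 and 397 FPKM (-0.29, limma adjusted p = 0.226) and Tpm4 at 286 and 271 against 230.4 and 230.1 (-0.27, limma adjusted p = 0.190), both lower in both deficient libraries. Tpm1 was 46.1% and 45.0% of the summed FPKM of the 4 genes in controls and 42.6% and 45.6% in deficient libraries. Tagln2, the transgelin of epithelia, stood at 478 and 497 against 444 and 406 (-0.20, limma adjusted p = 0.383). Tagln, its smooth muscle relative, stood at 3.67 and 5.26 against 5.90 and 6.52 FPKM, above the controls in both deficient libraries but close to control 2 (log2 fold change 0.41, SE 0.16, limma adjusted p = 0.247; 0.20 without control 1 and 0.62 without control 2). For Tagln the authors' deposited table gave 0.28 with an adjusted p of 0.655. Exons of Tagln overlap Gm48529 and Pcsk7 on the opposite strand. Cnn1, the smooth muscle calponin, was outside the level required, at 0.135 and 0.151 against 0.184 and 0.171. Of 7 smooth muscle markers only Smtn was tested, and it stood at 38.4 and 39.2 FPKM against 29.6 and 29.8, nearly all of the list's summed level of 40.0 and 40.4 against 31.7 and 32.1. The authors' deposited table called Smtn lower (adjusted p = 0.0206) and limma did not (adjusted p = 0.0836). Among the others, Des stood at 0.705 and 0.348 against 1.29 and 1.10 FPKM, Synpo2 and Cnn1 were also higher in both deficient libraries, Lmod1 overlapped, and the defining Myh11 and Myocd were at or near 0, with Myh11 between 0.0210 and 0.0259. The part of smooth muscle cells in the level of Tagln was not tested.

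In the focal adhesion plaque 8 of 10 genes had a log2 fold change below 0, against 50.4% of all tested genes. Limma and the authors' deposited table called none of the 10. Vcl, vinculin, which strengthens adhesions under load, stood at 63.11 and 63.10 FPKM in controls and 49.1 and 55.8 in deficient libraries, lower in both (-0.26, SE 0.10, limma adjusted p = 0.224). Ilk, the integrin-linked pseudokinase, stood at 56.1 and 60.6 against 44.5 and 50.2, also without overlap (-0.30, limma adjusted p = 0.193). The largest difference was that of Nedd9, a docking protein of the Cas family, at 11.9 and 11.0 against 8.09 and 10.1 FPKM (-0.31, SE 0.13, limma adjusted p = 0.265). Most of it came from deficient library 1, without which it was -0.17. Bcar1, p130Cas of the same family, pointed the other way, at 22.5 and 23.7 against 25.0 and 25.6 (0.13, limma adjusted p = 0.540). Zyx, zyxin, the most abundant plaque gene, stood at 180.2 and 194 against 172 and 176, and Pxn, paxillin, at 39.7 and 51.9 against 36.8 and 38.0, both lower in both deficient libraries. The kinase gene Ptk2 (FAK), Parva, the talin gene Tln1 and Lasp1 overlapped between the groups, Tln1 at 30.9 and 35.2 against 27.1 and 32.0.

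Exons of 16 of the 50 tested members overlap those of another gene, 13 on the opposite strand and 3 on the same strand, in the GENCODE annotation of the same build, so some reads of these genes may belong to a neighbour.

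The lower values were most frequent among the abundant members. Of 25 members with a mean of at least 100 FPKM, 24 had a log2 fold change below 0, Ezr being the exception, and 18 were lower in both deficient libraries than in either control, with 1 higher in both. Among all 754 genes that abundant, 65.3% were below 0, 30.2% were lower in both deficient libraries and 13.3% were higher in both. The 7 members above 300 FPKM had a median log2 fold change of -0.24, against -0.08 for all 176 genes of that level. Between 100 and 300 FPKM the medians were -0.12 for 18 members and -0.03 for all genes, and between 30 and 100 FPKM -0.11 for 17 members and -0.01 for all. Between 10 and 30 FPKM they were 0.06 for 4 members, of which 1 was below 0, and -0.01 for all. Only 4 members lay below 10 FPKM, Myh10 and Tagln above 0 and Evl and Myl9 below it. Their median was 0.13, against 0.02 for all genes of that level. Summed over the 52 genes, expression was 2.11% and 2.15% of the FPKM total in controls and 1.86% and 1.92% in deficient libraries. Relative to the control mean, the member median was -0.13 in deficient library 1 and -0.14 in library 2, against 0.02 and -0.02 for all tested genes.

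**Figure D3:**
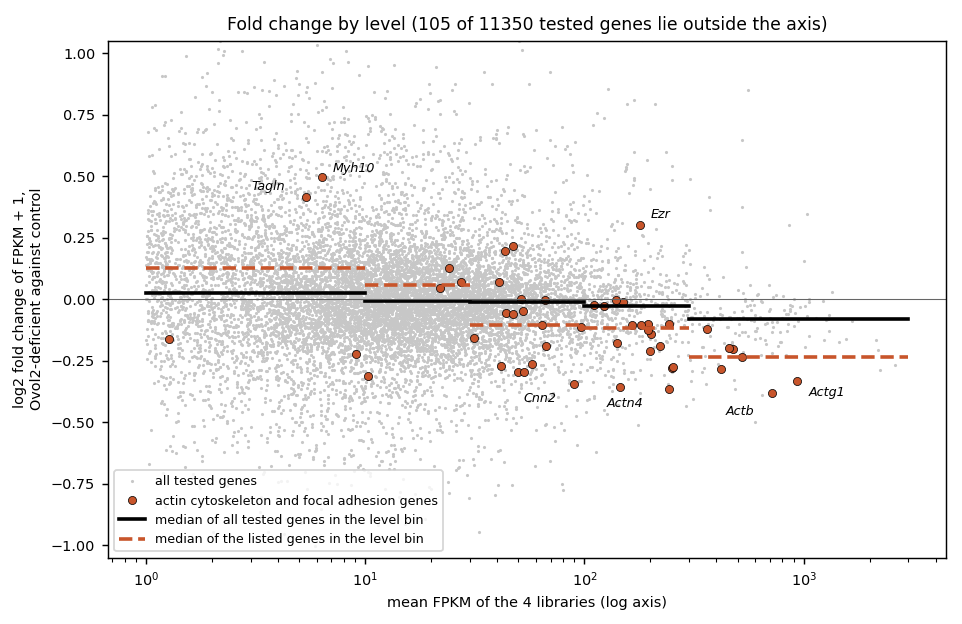
Log2 fold change (FPKM + 1 scale, Ovol2-deficient against control) against mean FPKM (log axis) for all 11350 tested genes (grey) and the 50 actin cytoskeleton and focal adhesion genes (orange), with the median of each in 5 bins of level as solid and dashed lines; 105 genes lie outside the axis. Above 300 FPKM the members lie at a median of -0.24 and all genes at -0.08.

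Other genes of the same machinery were counted in the same fit. Of 96 listed, 93 were tested, and 1 fell, 1 rose and 91 did not pass in limma, with a median log2 fold change of -0.03. Among all tested genes limma called 0.511% lower and 0.837% higher. Flnc, filamin C, best known from muscle, rose from 10.9 and 11.6 FPKM to 17.7 and 19.3 (log2 fold change 0.67, SE 0.10, limma adjusted p = 0.0395). Anln, anillin, which scaffolds the contractile ring of dividing cells, fell from 37.1 and 40.3 to 25.6 and 22.3 (-0.67, SE 0.10, limma adjusted p = 0.0419). Neither was called with a filter at 0.1 FPKM, without a filter, under quantile normalization, without the variance trend, or without either deficient library. Flnc was also not called under median centring, nor Anln without control 2. The authors' deposited table called 13 of them, 8 lower and 5 higher. The lower ones included the monomer buffer Tmsb4x (740.1 and 669 against 510 and 485 FPKM, limma adjusted p = 0.0704, while the authors' deposited table gave 1.27e-05) and the kindlin of epidermis, Fermt1 (11.1 and 12.7 against 7.74 and 7.50, limma adjusted p = 0.0581; the authors' deposited table gave 0.00125). Srf itself, which encodes the factor known to recognise the CArG box, stood at 24.4 and 26.0 FPKM against 18.0 and 18.8, lower in both deficient libraries (log2 fold change -0.44, SE 0.09, limma adjusted p = 0.0707; the authors' deposited table gave -0.43 with an adjusted p of 0.00956). Its cofactor gene Mkl1 stood at 25.2 and 25.4 against 20.6 and 22.1 (-0.24, limma adjusted p = 0.247), and Mkl2 overlapped between the groups. The 6 members with a CArG box in their window had log2 fold changes of -0.33 (Actg1), -0.11 (Arpc4), -0.34 (Cnn2), -0.12 (Myl6), -0.16 (Myl9) and -0.26 (Vcl). The groups overlapped for Arpc4 and Myl6, and Myl9 was close to the level required, at a mean of 1.27 FPKM. Of all 50 tested members, 40 were below 0, with a median of -0.12. The part of Srf in the members' values was not tested.

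Some paralogs differed in their ratio to the main gene of their family and others did not. FPKM is per length, so each paralog was set against the most abundant gene of its family within each library, over 26 pairs, a description whose pairs were chosen with these values known. In 15 pairs the ratio was higher in both deficient libraries than in either control, in 2 it was lower in both, and in 9 the groups overlapped. No share over other gene pairs was computed to read these counts against. Abundant genes leaned lower in general, with all-gene medians of -0.08 above 300 FPKM and -0.03 between 100 and 300 FPKM. Only some of the denominators lie above 300 FPKM. Flna and Myh9 had means between 100 and 300 FPKM. Vasp, Tln1 and Parva had means between 30 and 100 FPKM, where the all-gene median was -0.01. Myh10 was 3.73% and 3.16% of Myh9 in controls and 6.24% and 5.37% in deficient libraries. Flnc was 7.03% and 6.82% of Flna, then 14.65% and 14.59%, the largest difference in mean log2 ratio of the 26. Pfn2 was 2.60% and 2.38% of Pfn1, then 5.03% and 4.36%, and Tagln was 0.769% and 1.06% of Tagln2, then 1.33% and 1.61%. The pairs with the ratio below the controls were Diap3 to Diap1, at 49.8% and 53.1% and then 33.7% and 33.8%, and Cnn2 to Cnn3. Actb to Actg1 and all 3 tropomyosin pairs overlapped, while Actn1 was 80.2% and 92.9% of Actn4 in controls and 99.8% and 95.2% in deficient libraries. The same deficient libraries had the higher fibroblast or feeder markers, whose 17 tested genes had log2 fold changes from 0.23 to 0.74, beside 0.50 for Myh10, 0.67 for Flnc, 0.64 for Pfn2 and 0.41 for Tagln. The part of other cells in these ratios was not tested.

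**Figure D4:**
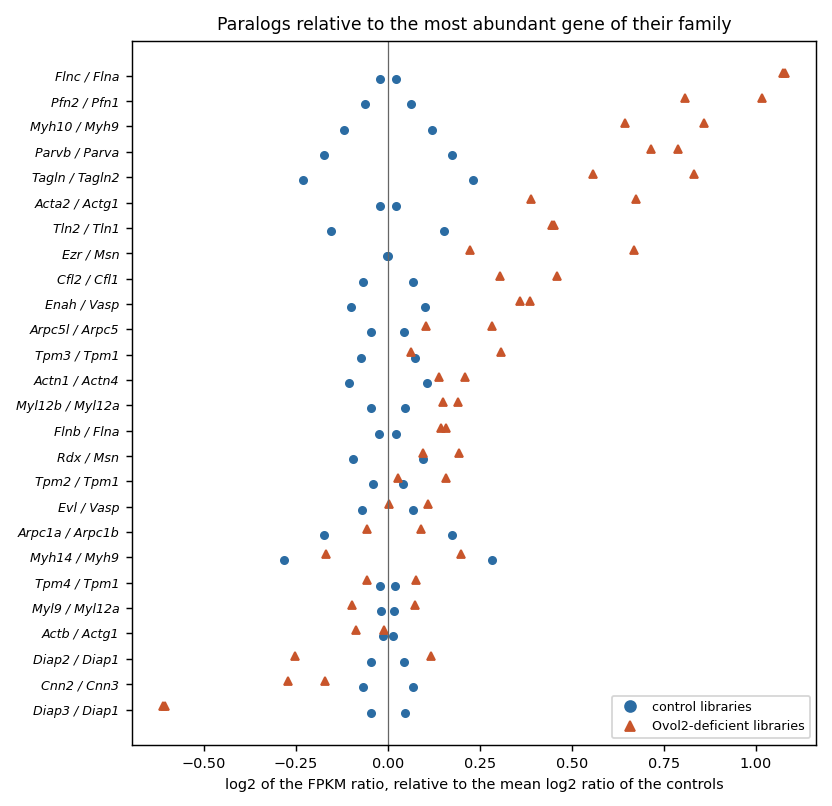
Log2 of the FPKM ratio of 26 paralogs to the most abundant gene of their family, relative to the mean log2 ratio of the 2 controls, for each control (circles) and Ovol2-deficient (triangles) library. Flnc to Flna is highest in the deficient libraries and Diap3 to Diap1 lowest.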

How the data were processed

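RNA was sequenced from 2 control and 2 Ovol2-deficient keratinocyte libraries. Per the labels' protocols, Trizol RNA was made into amplified full-length cDNA and tagmented with a Nextera kit; no strand is stated. TopHat, HTSeq and the build mm10 are named in the submitters' processing notes, without version or role. The annotation used is not known here.

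The authors deposited FPKM values per library (24487 rows; 1 repeated header line was removed, 27 date-like symbols were dropped, and rows of one symbol were summed). Per the file headers, the authors' second table (24062 rows) holds a mean normalized signal, a log2 fold change, scores (its standard error and test statistic), and p-values with adjusted values. Its tool is not named. The mutant columns carry a code other than the labels' titles, so they were assigned to the deficient group and keep the numbers of the table.

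Genes with a mean of at least 1 FPKM (11350) were fitted on log2(FPKM + 1), a scale that understates changes of low genes, in limma 3.58.1 (R 4.3.3) with a single group term, a variance trend and Benjamini-Hochberg adjustment over all tested genes at a threshold of 0.05. Because the tables hold no counts, no count test was run. An exact permutation test of 2 against 2 libraries cannot go below 0.333, so none was used. The fit was tested on simulated data. Between any pair of libraries 5 to 13 of 11350 values were identical. Named were the most abundant member, the largest rise and the largest fall of each role, and members called by limma or by the authors; other members with printed values were chosen after these were seen. The members and lists were chosen with earlier results of these data known. Positions are from GENCODE M21 and start windows from RefSeq. List names missing from the table were looked up through RefSeq synonyms. Reads per library were estimated from the commonest mean signal of genes seen in 1 library, taken as 1 read, assuming equal normalized totals; no counting interval was computed. Alternatives were 2 pseudocounts, 3 filters, 2 scalings, no variance trend, the replicate number as a block, each library left out, and the authors' table.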

Additional observations from a re-analysis of the deposited data

How the results depend on the processing

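With 2 libraries per group, member differences of the sizes reported did not pass adjustment in limma, and a missed threshold does not show that levels were alike. The count of members called stayed at 0 in limma in every alternative except the replicate block, which called 4 lower (Actb, Actg1, Actn4 and Flna); the authors' deposited table called 6. Across genes, the differences between libraries 1 and 2 correlated between the groups at r = 0.220, but nothing in the labels pairs the libraries, so the block is only an alternative.

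The other actin genes called, 2 as reported, were 0 with a filter at 0.1 FPKM, without a filter, with quantile normalization and without the variance trend, 1 with median centring, 7 with a filter at 5 FPKM, 10 with the replicate block and 13 in the authors' deposited table. All tested genes called, 153 as reported, were 8, 3, 5, 6, 80, 267, 518 and 513 in the same order. Leaving out each library in turn gave 0 to 5 other actin genes and 10 to 397 genes in all (397 without control 1, 10 and 25 without Ovol2-deficient libraries 1 and 2). All 5 genes called with quantile normalization were higher, against 95 higher and 58 lower as reported. The member median of -0.12 was -0.14 with median centring and in the authors' deposited table, and -0.14 to -0.11 with a library left out. The number of members with a log2 fold change below 0 was 35 to 40 with a library left out, with 35 both without control 1 and without Ovol2-deficient library 2.

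Of the members picked by the naming rule given above, Cttn, Myl6 and Diap1 changed sign. Cttn was at 0.0020 with quantile normalization, 0.013 without control 1 and 0.031 without Ovol2-deficient library 1. Myl6 was at 0.067 without control 1, and Diap1 at -0.013 without Ovol2-deficient library 1. With each library left out in turn, Cttn ran from -0.034 to 0.031, Myl6 from -0.31 to 0.067 and Diap1 from -0.013 to 0.15. The other 21 members picked by that rule kept their direction in every alternative. Members outside the rule were not followed singly, and some changed sign too. Rdx, for example, was at 0.0019 in limma and at -0.031 in the authors' deposited table. The cause of these changes was not tested.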
